A study of Mus musculus with 9 samples.

Results

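The insulin genes and the genes that turn prohormones into hormones were followed in RNA-seq libraries of mouse pancreatic islets. The 9 genes were chosen by name for their role, with earlier results of these data known: the hormone precursors Ins1, Ins2 and Iapp, the convertases Pcsk1 and Pcsk2, the carboxypeptidase Cpe, the inhibitor Pcsk1n, the chaperone Scg5 and the amidating enzyme Pam. They are 9 of the 56941 gene identifiers counted. The islets came from male WT C57BL/6J mice that were 15 weeks old when the diets began and were fed them for the following 9 months. LFD, the low fat control diet (3 libraries), held 10% fat, the high fat diet (HFD, 2 libraries) 60% fat and the ketogenic diet (KD, 4 libraries) 89.9% fat. All groups shared the genotype, the sex and the tissue, and no group carried a transgene or an added agent in the labels. The labels do not say whether each library came from a separate animal or from pooled islets, so the p-values measure the spread between these libraries.

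Insulin is made in beta cells as preproinsulin, which loses its signal peptide on entry into the endoplasmic reticulum and folds as proinsulin. In maturing secretory granules the prohormone convertases encoded by Pcsk1 and Pcsk2 cut proinsulin after pairs of basic residues, and carboxypeptidase E then trims those residues to leave insulin and C-peptide. Mice carry a pair of insulin genes, Ins1 and Ins2, and islet amyloid polypeptide (Iapp) is stored in the same granules and matured by the same enzymes.

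In the main edgeR fit and in DESeq2, none of the 9 genes passed the test of its level in any of the 3 comparisons of diets. For KD against LFD limma-voom called 1 (Pcsk1n). There edgeR called 4 with a covariate for acinar (digestive-enzyme cell) markers and 1 with a covariate for beta cell genes. For KD against HFD it called 3 with the replicate number as a block and 3 without KD replicate 4. The shares of all genes are given with each fit below. The differences described next lie in the proportions of the 9 genes to each other. In the KD libraries Ins1 stood higher relative to Ins2 (1.49-fold), Iapp lower relative to the insulin genes (0.815-fold), Pcsk1 lower relative to Pcsk2 (0.723-fold) and Pcsk1n higher relative to Pcsk1 (2.02-fold), each with no overlap between the 4 KD and the 3 LFD libraries. Each of these ratios gave the smallest p that 7 libraries allow in the exact permutation test, and none passed after adjustment over the 16 quantities tested. With 5 of the 16 at that smallest p, the adjusted p is 0.0914 however large the differences are, so missing the threshold does not speak to their size. Separation of KD from LFD libraries held for 24 of the 36 pairs of the 9 genes, so among them it is not particular to these ratios. Pairs that share a gene are not independent, and the share over pairs of all genes was not computed.

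The C-peptide stretch of the insulin genes is shown because their ratio was one of the quantities that separated the diets and because reads from near-identical genes can be hard to assign. It was taken from GENCODE M21 transcripts (GRCm38), 5′ to 3′, from the codons of the basic pair at the B chain junction to those at the A chain junction (coding bases 163 to 261 of Ins1 and 163 to 267 of Ins2), and capitals mark the bases that differ between the aligned genes. Over the whole coding sequences, without the stop codon, the alignment held 300 identical bases of 330 (90.91%), 24 substitutions and 6 bases present in Ins2 alone, and the longest identical run was 54 bases.
Ins1: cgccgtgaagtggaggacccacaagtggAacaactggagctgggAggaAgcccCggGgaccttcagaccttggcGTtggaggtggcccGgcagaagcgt
Ins2: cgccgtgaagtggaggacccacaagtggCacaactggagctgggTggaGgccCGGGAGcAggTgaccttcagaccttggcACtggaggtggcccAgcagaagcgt
Over the principal transcripts, 7 of the 1013 windows of 50 bases in Ins1 (0.691%) also occurred in Ins2, as did 7 of the 406 windows of Ins2 (1.724%) in Ins1. The other 7 genes shared no such window with another gene. The sources used here do not say how reads that matched both insulin genes were counted, and the levels of Ins1 and Ins2 are uncertain to that extent.

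The cutting sites are shown because they are what Pcsk1 and Pcsk2 act on in all 3 precursors. Each line gives 36 coding bases from the same GENCODE M21 transcripts, with the codons of the pair of basic residues in capitals.
Ins1, B chain and C-peptide junction: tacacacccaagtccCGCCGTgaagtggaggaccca
Ins2, B chain and C-peptide junction: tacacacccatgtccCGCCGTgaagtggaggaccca
Ins1, C-peptide and A chain junction: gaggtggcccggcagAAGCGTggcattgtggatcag
Ins2, C-peptide and A chain junction: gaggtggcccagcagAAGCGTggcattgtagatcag
Iapp, amino-terminal site: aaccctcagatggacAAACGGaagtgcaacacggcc
Iapp, carboxy-terminal site: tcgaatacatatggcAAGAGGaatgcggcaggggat
The capital bases were the same in Ins1 and Ins2 at both junctions. As bases they differed between the insulin genes and Iapp at both Iapp sites. As residues, both Iapp sites encode lysine and arginine, the same pair as the C-peptide and A chain junction of both insulin genes. The B chain and C-peptide junction encodes a pair of arginines.

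Promoter sequence is shown for Ins1 and Iapp because these precursors are stored together yet took different proportions across diets. Each is the 250 bases before the start site in RefSeq (GRCm38.p6), on the plus strand at chr19:52264047-52264296 for Ins1 and chr6:142298175-142298424 for Iapp. The RefSeq table matched 7 of the 9 genes, without Ins2 and Cpe. Capitals mark matches on either strand to TAAT (reverse complement ATTA), the core bound by homeodomain factors such as Pdx1, and to GCCATCTG (reverse complement CAGATGGC), an E-box of the kind bound by Neurod1.
Ins1: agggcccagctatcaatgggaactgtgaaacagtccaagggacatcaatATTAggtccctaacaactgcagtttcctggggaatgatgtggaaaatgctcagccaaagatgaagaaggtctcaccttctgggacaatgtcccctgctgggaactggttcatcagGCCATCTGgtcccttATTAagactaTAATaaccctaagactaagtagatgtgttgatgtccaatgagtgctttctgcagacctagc
Iapp: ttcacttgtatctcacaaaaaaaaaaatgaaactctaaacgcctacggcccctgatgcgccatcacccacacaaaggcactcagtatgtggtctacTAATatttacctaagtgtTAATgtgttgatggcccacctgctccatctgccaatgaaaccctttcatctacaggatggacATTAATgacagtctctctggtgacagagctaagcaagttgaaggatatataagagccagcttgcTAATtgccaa
The Ins1 window held 1 GCCATCTG and 3 TAAT matches, none overlapping. The Iapp window held 5 TAAT matches, 2 of which overlapped, and no GCCATCTG. It does hold an unmarked TCCATCTG, which differs from that string in its first base only. Of 27025 RefSeq promoter windows of the same length, 1.11% held GCCATCTG and 55.3% held TAAT, so the latter is a common string. These are matches of letters only.

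Library totals ran from 15513502 to 26588390 counts. Replicates of a diet all differed by more than sampling noise, with a chi-square per gene of at least 24.5. Beta cell and alpha cell markers were present in every library, and no gene of the 9 marker lists was at 0 in all libraries of a diet. Acinar markers, 24 genes of the digestive-enzyme cells that surround islets, took 14.7% to 34.98% of counts in LFD, 11.02% to 18.4% in HFD and 19.9% to 59.0% in KD. KD replicate 4, at 19.9%, stood apart from the other KD libraries, which were at 43.6% or more. Called lower in KD than in LFD were 11 of 12 lymphocyte, 3 of 10 duct, 2 of 9 macrophage and 1 of 5 delta and PP cell markers, and no marker was called higher (edgeR, Benjamini-Hochberg adjusted p below 0.05). In bulk RNA, fewer cells of a type and less RNA per cell cannot be told apart. The labels used here name no batch or date, so a batch and the diet cannot be told apart.

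The 9 genes together held 5.86%, 7.62% and 9.73% of the counts of LFD replicates 1 to 3. They took 13.2% and 11.9% in HFD replicates 1 and 2. They took 1.77%, 5.30%, 3.00% and 13.3% in KD replicates 1 to 4. The KD libraries thus covered both the lowest and the highest share of all 9 libraries, while HFD lay above LFD with no overlap. Counting error alone gave 95% Wilson intervals no wider than 0.0164 points on each side. The KD mean of 5.85% ± 5.20 (SD, n = 4) was not separated from the LFD mean of 7.74% ± 1.94 (SD, n = 3) in an exact two-sided permutation test (p = 0.571). The difference of KD from LFD was -1.88 points with KD replicate 4 and -4.38 points without it. The shares lie in inverse order to the acinar share within KD and within LFD, and the part of the acinar share in the result was not tested.

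Levels below are CPM, counts scaled to a common TMM-adjusted library size, unless a sentence says otherwise. On LFD, and per kilobase of transcript so that genes can be compared, Ins2 stood highest at 43460.1 CPM per kilobase, Ins1 next at 12467.9 and Iapp at 8952.38. The enzymes and their helpers followed at 484 for Cpe, 373 for Pcsk2, 206 for Scg5, 147 for Pam, 93.1 for Pcsk1 and 93.0 for Pcsk1n. The LFD libraries of neighbours in this order overlapped for Ins1 and Iapp, for Cpe and Pcsk2, and for Pcsk1 and Pcsk1n, and did not overlap for the other neighbours. The order by group mean was the same on HFD and KD except that Pcsk1n, at 144 and 152 CPM per kilobase, stood above Pcsk1, at 114 and 78.7. On KD the only neighbours with no overlap were Iapp and Cpe. Transcript lengths came from GENCODE M21, which may differ from the authors' annotation, and Ins2 reached 87684.4 on LFD with its shortest principal transcript.

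Ins2 (ENSMUSG00000000215), the main insulin gene in these islets, was at 35509.8, 35977.7 and 48201.7 CPM in LFD replicates 1 to 3. It was at 66138.4 and 43895.6 CPM in HFD replicates 1 and 2. It was at 17777.8, 34202.9, 27708.8 and 63380.1 CPM in KD replicates 1 to 4. The KD libraries ran from below every LFD library to above every LFD library. The log2 fold change of KD against LFD was -0.16 (SE 0.55, adjusted p = 0.896), by edgeR's quasi-likelihood test with Benjamini-Hochberg adjustment over 18548 genes.

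Ins1 (ENSMUSG00000035804), the other insulin gene, was at 9859.2, 14073.5 and 15789.9 CPM on LFD. It was at 20156.5 and 19645 CPM on HFD, above every LFD library. It was at 8864.67, 17586.3, 12254.6 and 32019.2 CPM on KD, with the widest range of the 9 genes on that diet (highest over lowest 3.61). KD differed from LFD by log2 0.42 (SE 0.49, edgeR Benjamini-Hochberg adjusted p = 0.650). HFD differed from LFD by log2 0.59 (SE 0.57, edgeR Benjamini-Hochberg adjusted p = 0.734).

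Iapp (ENSMUSG00000041681) was at 6737.51, 7308.17 and 8487.45 CPM on LFD and at 15772.7 and 10449.1 CPM on HFD. It was at 3049.97, 5906.82, 4786.97 and 10985.6 CPM on KD. The HFD libraries lay above all LFD libraries, and only KD replicate 4 reached the HFD range. Iapp had the largest fitted difference of the 9 genes both for HFD against LFD (log2 0.80, SE 0.51, adjusted p = 0.610) and for KD against HFD (log2 -1.08, SE 0.48, adjusted p = 0.208), by edgeR with Benjamini-Hochberg adjustment. The unadjusted p of the second was 0.0436.

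**Figure D1:**
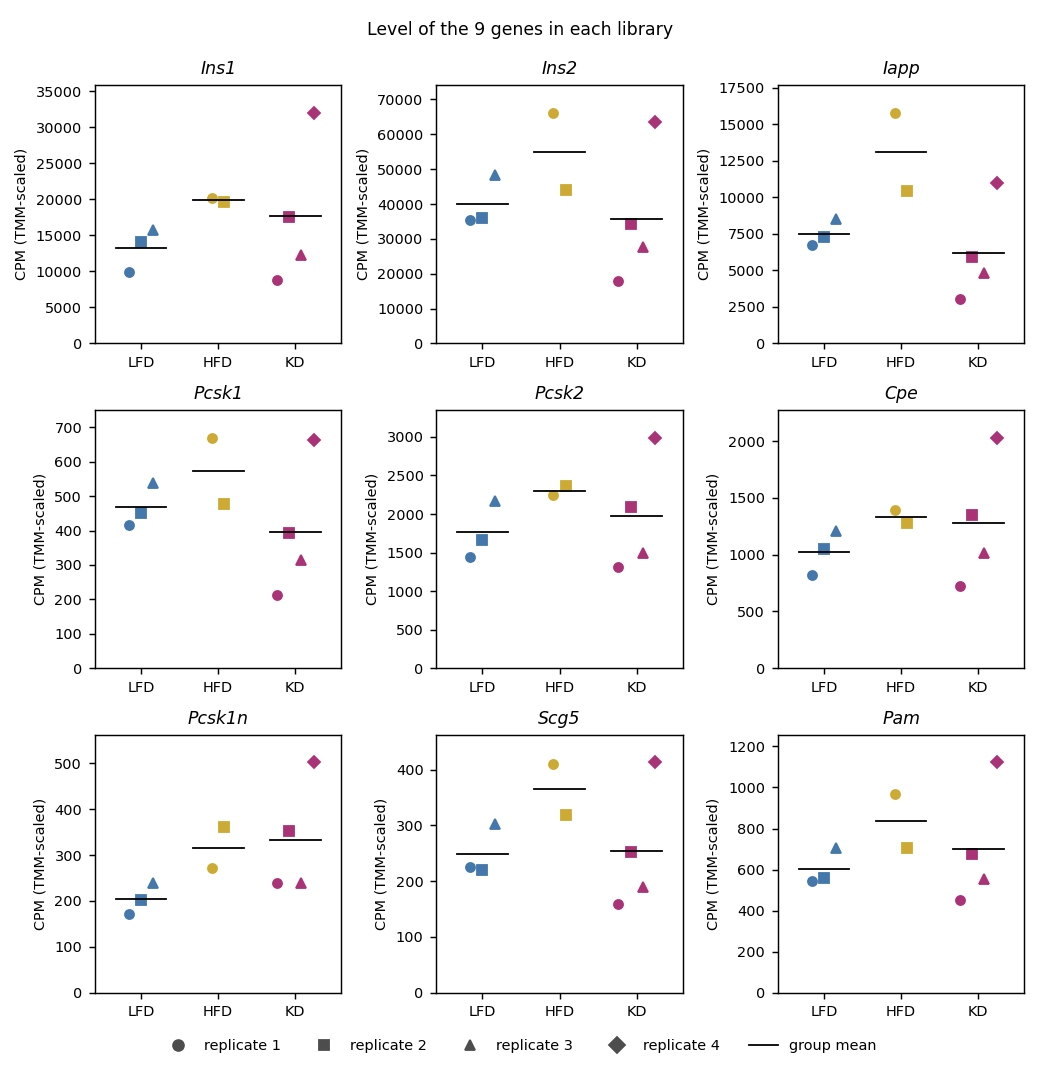
TMM-scaled CPM of each gene (vertical axes, linear, from 0) in the LFD, HFD and KD libraries, with marker shape for the replicate number and a line at the group mean. In all 9 panels KD replicate 1 is the lowest and KD replicate 4 the highest of the KD libraries.

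Pcsk1 (ENSMUSG00000021587), which encodes the convertase PC1/3, was at 416, 452 and 540 CPM on LFD. It was at 671 and 478 CPM on HFD and at 212, 394, 316 and 665 CPM on KD. All but 1 of the KD libraries lay below the lowest LFD library. KD differed from LFD by log2 -0.24 (SE 0.32, edgeR Benjamini-Hochberg adjusted p = 0.692).

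Pcsk2 (ENSMUSG00000027419), which encodes the convertase PC2 and is also the main convertase of alpha cells, was at 1447.23, 1666.22 and 2169.13 CPM on LFD. It was at 2241.1 and 2368.02 CPM on HFD and at 1315.14, 2088.56, 1490.86 and 2992.66 CPM on KD. HFD lay above LFD with no overlap and KD spanned both. KD and LFD differed by log2 0.16 (SE 0.31, edgeR Benjamini-Hochberg adjusted p = 0.794).

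Cpe (ENSMUSG00000037852), carboxypeptidase E, was at 819, 1050.37 and 1203.5 CPM on LFD, at 1390.08 and 1279.25 on HFD, and at 722, 1349.14, 1013.32 and 2030.97 on KD. HFD again lay just above LFD, and KD spanned both. The KD against LFD log2 fold change was 0.32 (SE 0.32, edgeR Benjamini-Hochberg adjusted p = 0.582).

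Pcsk1n (ENSMUSG00000039278) encodes proSAAS, an inhibitor of PC1/3. It was at 171, 202 and 239 CPM on LFD and at 272 and 360 CPM on HFD. It was at 239.952, 353, 240.017 and 502 CPM on KD. It was the only member of the 9 whose KD libraries all lay above all LFD libraries in TMM-scaled CPM. The closest were KD replicate 1 at 239.952 and LFD replicate 3 at 238.815. Over all genes tested, 9.69% showed such separation upward. As a percent of counts without TMM scaling, KD replicates 1 and 3 (0.0130 and 0.0148) lay below every LFD library (0.0180 to 0.0299). KD replicate 2 (0.0298) lay within the LFD range and KD replicate 4 (0.0587) above it. The TMM factors were 0.542 and 0.619 for KD replicates 1 and 3, and 1.05 to 1.25 for LFD. The log2 fold change of 0.71 (SE 0.26) had an unadjusted p of 0.0196 and a Benjamini-Hochberg adjusted p of 0.140 in edgeR.

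Scg5 (ENSMUSG00000023236) encodes 7B2, a chaperone of the PC2 precursor. It was at 225, 220.1 and 303 CPM on LFD, at 411 and 319 on HFD, and at 159, 253, 190 and 413 on KD. Its KD against LFD log2 fold change of 0.03 (SE 0.29) was the smallest of the 9 in size (edgeR, Benjamini-Hochberg adjusted p = 0.970).

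Pam (ENSMUSG00000026335) encodes the enzyme that amidates peptide ends, Iapp among its substrates. It was at 544, 560.4 and 705 CPM on LFD, at 968 and 707 on HFD, and at 451, 676, 554 and 1123.09 on KD. The lower HFD library lay just above the highest LFD library. The KD against LFD log2 fold change was 0.22 (SE 0.29, edgeR Benjamini-Hochberg adjusted p = 0.692).

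For KD against LFD, 0 of the 9 genes passed, where 4.12% of all genes tested did (edgeR, Benjamini-Hochberg adjusted p below 0.05). At an unadjusted p below 0.05 the count was 1, against 22.7% of all genes. DESeq2 called 0 of the 9, beside 9.56% of all genes. limma-voom with sample weights called 1 of the 9, Pcsk1n (adjusted p = 0.0442), beside 10.1% of all genes, a share near that of the members. With the mean log2 level of the acinar markers as a covariate in edgeR, 4 of the 9 passed, all higher on KD: Ins1 (log2 0.97), Pcsk2 (0.61), Cpe (0.77) and Pcsk1n (1.157), where 2.72% of all genes were called higher. With the mean log2 level of 13 beta cell reference genes as the covariate, Pcsk1n alone passed (0.66, adjusted p = 0.00373), while 14.0% of all genes did, a larger share than 1 of 9.

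For HFD against LFD, 0 of the 9 genes and 0.0% of all genes passed in edgeR, and no member had an unadjusted p below 0.05 in edgeR or DESeq2, against 9.99% of all genes in edgeR. DESeq2 called 0 of the 9 and 1.44% of all genes. limma-voom called 0 too, with 1 member at an unadjusted p below 0.05. All 9 had a fitted log2 fold change above 0, from 0.29 for Pcsk1 to 0.80 for Iapp, with a median of 0.47 beside -0.0017 over all genes. In 7 of the 9, all but Ins2 and Pcsk1, both HFD libraries lay above all LFD libraries, where 13.4% of all genes did. Summed CPM of the 13 beta cell reference genes ran from 3111.76 to 4366.16 in LFD and from 4249.39 to 4634.72 in HFD, and the acinar share from 14.7% to 34.98% and from 11.02% to 18.4%. Divided by the mean of the beta cell reference genes, only 1 of the 9, Pcsk1n, had separate HFD and LFD libraries. The share of all genes was not computed in that measure. With the acinar covariate the members' median was 0.087.

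For KD against HFD, 0 of the 9 genes passed in edgeR or DESeq2 (0.0% of all genes in edgeR and 8.18% in DESeq2), and 1, Iapp, had an unadjusted p below 0.05, against 22.7% of all genes. The fitted log2 fold changes ran from -1.08 for Iapp to 0.08 for Pcsk1n, with a median of -0.26 beside -0.04 over all genes. The KD and HFD ranges overlapped for all 9 genes, while 33.9% of all genes did not overlap. Without KD replicate 4, edgeR called 3 of them lower on KD: Iapp (log2 -1.52, adjusted p = 0.0310), Pcsk1 (-0.90, adjusted p = 0.0480) and Scg5 (-0.86, adjusted p = 0.0381), with Benjamini-Hochberg adjustment. In that fit 3.45% of all genes were called lower and 9.84% in either direction, where none were with the library included. The comparisons of a diet with LFD share the LFD libraries, so their values are given side by side and not as separate evidence.

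**Figure D2:**
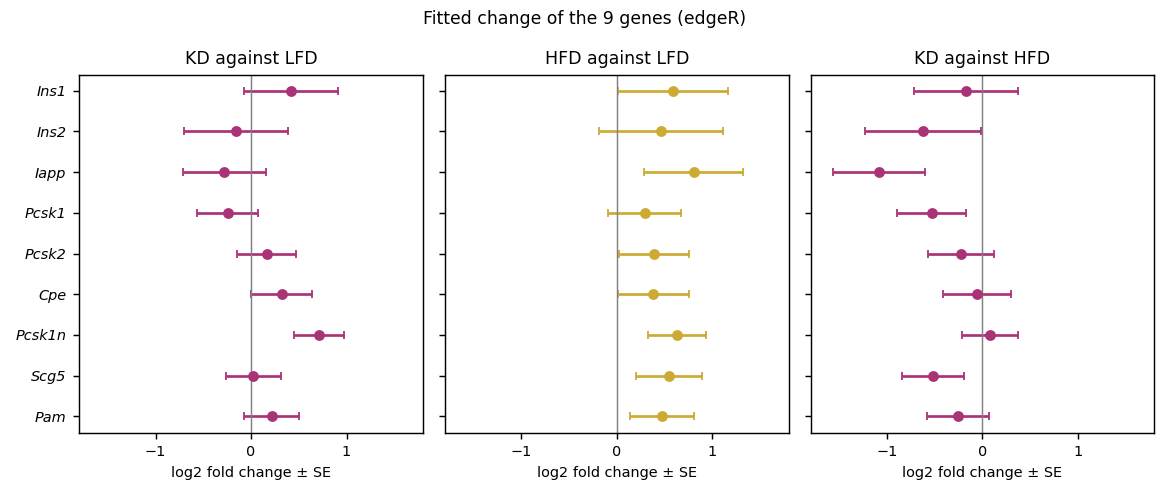
Log2 fold change of each gene (horizontal axes, point) with its standard error (bar), fitted by edgeR, for KD against LFD, HFD against LFD and KD against HFD. All 9 points lie above 0 for HFD against LFD, and 8 of the 9 lie below 0 for KD against HFD.

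The spread of levels among the KD libraries was shared by all 9 genes. The 4 KD libraries stood in the same order for every gene: replicate 1 lowest, then 3, 2 and 4. The ratio of the highest to the lowest KD library ran from 2.09 for Pcsk1n to 3.61 for Ins1, against 1.26 to 1.602 among the LFD libraries. Ratios formed within a library could vary much less. The SD of log2 Iapp among KD libraries was 0.77, while that of Iapp over Ins1 plus Ins2 was 0.03. The 7 ratios between members and the 9 levels relative to the beta cell reference were compared by exact two-sided permutation tests over the 35 splits of the 7 KD and LFD libraries.

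The ratio of Ins1 to Ins2 was 0.278, 0.391 and 0.328 on LFD, 0.305 and 0.448 on HFD, and 0.499, 0.514, 0.442 and 0.505 on KD. All 4 KD libraries lay above all 3 LFD libraries, and HFD replicate 2 reached the lowest KD library. The difference of KD from LFD was 0.57 on the log2 scale (exact two-sided permutation p = 0.0286, the smallest possible, adjusted p = 0.0914 over 16 quantities). Among the 18539 tested genes outside the 9, 1.68% had a level over Ins2 that was higher in every KD than in every LFD library. Leaving out each library in turn gave log2 differences of 0.45 to 0.70. KD replicate 4, whose acinar share of 19.9% lay within the LFD range, had a ratio of 0.505 beside 0.391 in LFD replicate 2 at 24.4%. These are single libraries, and the acinar share as a cause was not tested. With the acinar markers as a covariate, the difference was no longer at an exact permutation p below 0.05.

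Iapp relative to Ins1 plus Ins2 was 0.149, 0.146 and 0.133 on LFD, 0.183 and 0.164 on HFD, and 0.114, 0.114, 0.120 and 0.115 on KD. The 3 diets did not overlap with each other, with HFD highest and KD lowest. For HFD against LFD the share of all genes was not computed for this ratio. In CPM, 27.5% of all genes tested had separate HFD and LFD libraries. KD differed from LFD by -0.30 on the log2 scale (exact two-sided permutation p = 0.0286, adjusted p = 0.0914), and from HFD by -0.58. The smallest exact p for KD against HFD is 0.0667 and for HFD against LFD 0.1, so those are given as values. Of the other genes, 3.12% were lower without overlap on KD than LFD by the same ratio, and 2.18% on KD than HFD. Each library left out in turn gave -0.35 to -0.26.

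Pcsk1 relative to Pcsk2 was 0.288, 0.271 and 0.249 on LFD, 0.299 and 0.202 on HFD, and 0.161, 0.189, 0.212 and 0.222 on KD. KD lay below LFD with no overlap, while HFD overlapped both. The difference of KD from LFD was -0.47 on the log2 scale (exact two-sided permutation p = 0.0286, adjusted p = 0.0914), and 7.3% of the other genes were lower over Pcsk2 in the same way. Since Pcsk2 is also expressed by alpha cells, the 8 alpha cell markers stand beside it. They took 0.976% to 1.1996% of counts on LFD, 0.942% to 1.18% on HFD and 0.444% to 2.02% on KD. These percents fall as the acinar share rises. In summed CPM they ran from 7874.69 to 11227 on LFD, 6273.37 to 9646.24 on HFD and 7889.2 to 17319.2 on KD. Their median log2 fold change of KD against LFD was 0.25, beside 0.02 for the beta cell reference genes. None of the 8 were called by edgeR after Benjamini-Hochberg adjustment, and their part in the ratio was not tested.

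Pcsk1n relative to Pcsk1, the inhibitor over its enzyme, was 0.411, 0.448 and 0.442 on LFD, 0.405 and 0.754 on HFD, and 1.13, 0.897, 0.760 and 0.756 on KD. All KD libraries lay above all others, although HFD replicate 2 at 0.754 stood next to KD replicate 4 at 0.756. The difference of KD from LFD was 1.01 on the log2 scale, the largest of the 7 ratios (exact two-sided permutation p = 0.0286, adjusted p = 0.0914), and 3.64% of the other genes were higher over Pcsk1 in the same way (8.05% for KD against HFD). Leaving out each library gave 0.89 to 1.08.

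Among the 36 pairs of the 9 genes, Pcsk1n separated KD from LFD upward against 7 of the other 8, all but Ins1. Iapp separated downward against 7 of 8, all but Pcsk1, and Pcsk1 downward against 6 of 8. Pairs that share a gene are not independent, and no share over pairs of all genes was computed to stand beside these counts. The remaining ratios tested overlapped between KD and LFD. Scg5 over Pcsk2, the chaperone over its enzyme, differed by -0.17 (exact two-sided permutation p = 0.0857). Pam over Cpe differed by -0.09 (exact two-sided permutation p = 0.429). The sum of Pcsk1, Pcsk2 and Cpe over the insulin genes differed by 0.23 (exact two-sided permutation p = 0.143), with 0.0844 in KD replicate 1 and 0.0596 in KD replicate 4, beside 0.0591 to 0.0633 on LFD.

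**Figure D3:**
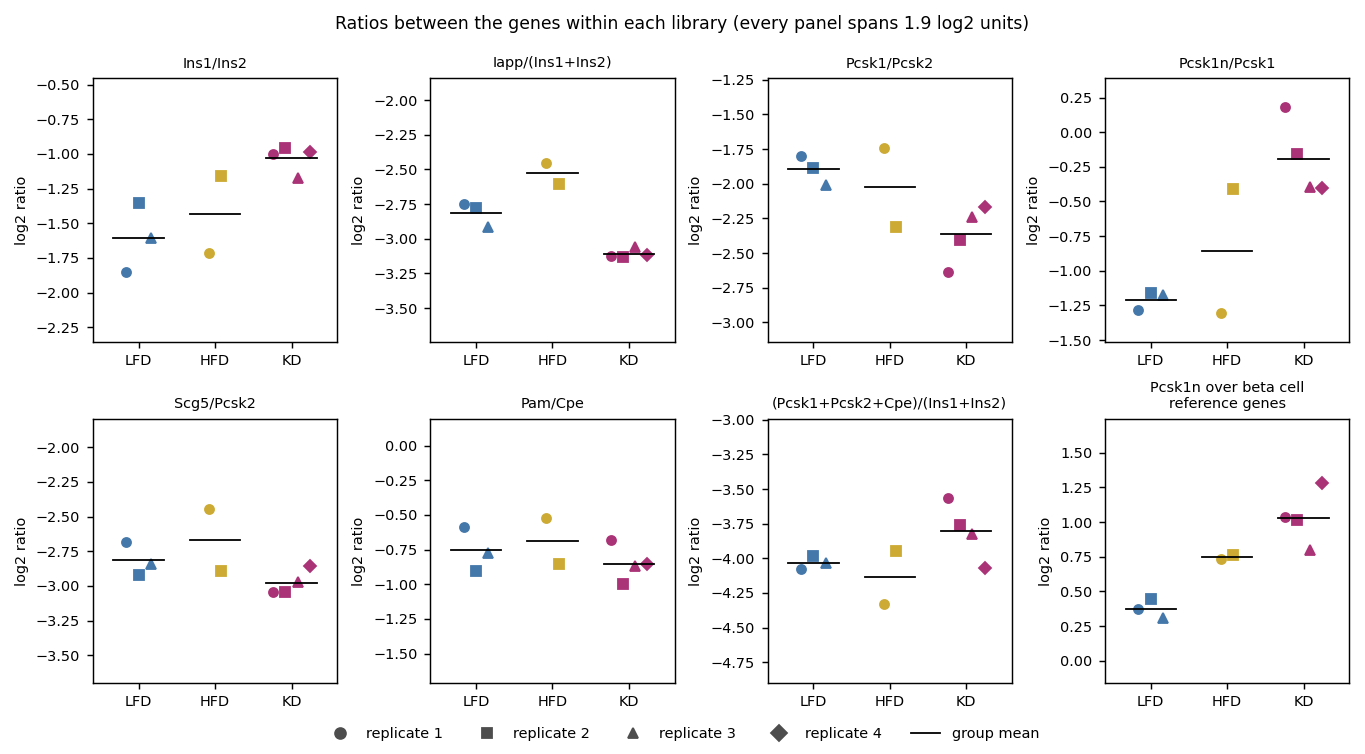
Log2 ratios between the genes within each library (vertical axes, each spanning the same 1.9 log2 units), with marker shape for the replicate number and a line at the group mean. Ins1/Ins2, Pcsk1n/Pcsk1 and Pcsk1n over the beta cell reference are higher in every KD than in every LFD library, and Iapp/(Ins1+Ins2) and Pcsk1/Pcsk2 are lower.

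Each gene was also set against the mean of 13 other beta cell genes, such as Slc2a2, the glucose transporter, and Abcc8, a subunit of the ATP-sensitive potassium channel. None of the 13 was called between KD and LFD by edgeR after Benjamini-Hochberg adjustment, and their log2 fold changes ran from -0.55 to 1.24 (Mafa) with a median of 0.02. The reference is not independent of the pathway: 5 of the 13 (Slc30a8, Sytl4, Pdx1, Mafa and Nkx6-1) also stand in the lists of granule proteins and insulin gene regulators. Relative to this reference Pcsk1n was 1.29, 1.36 and 1.24 on LFD, 1.67 and 1.70 on HFD, and 2.05, 2.02, 1.74 and 2.43 on KD. The 3 diets did not overlap, with LFD lowest and KD highest. For HFD against LFD the share of all genes was not computed in this measure. In CPM it was 27.5% in either direction. The difference of KD from LFD was 0.66 on the log2 scale (exact two-sided permutation p = 0.0286, adjusted p = 0.0914), and 2.56% of the other genes were higher in the same way (13.7% for KD against HFD). With the median of the reference genes in place of their mean the difference was 0.42. The other 8 members overlapped between KD and LFD in this measure, with differences from -0.42 for Iapp to 0.28 for Ins1 and exact two-sided permutation p from 0.171 to 0.8286.

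**Figure D4:**
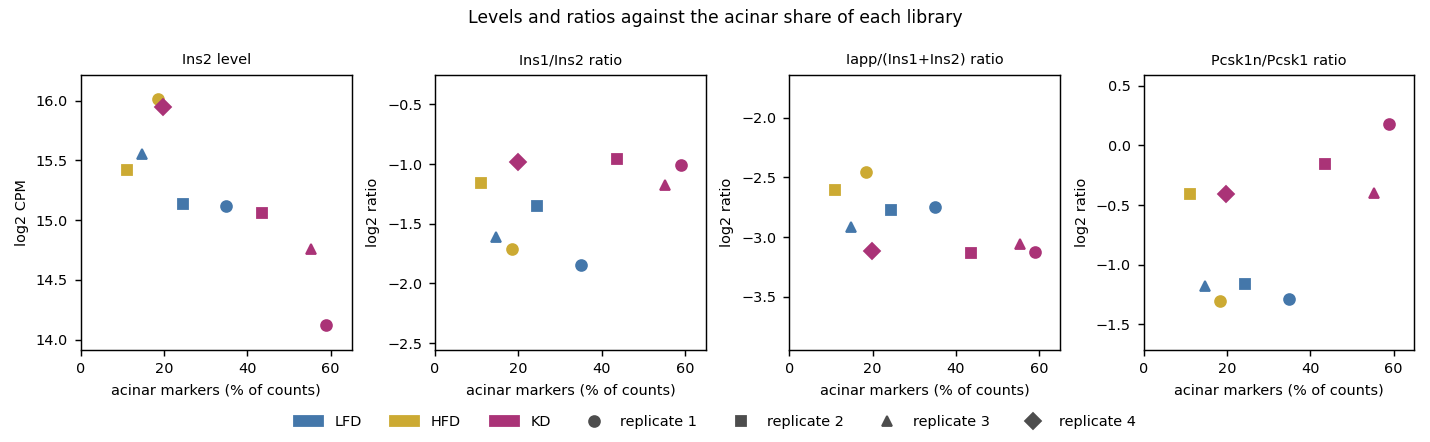
Log2 CPM of Ins2 and 3 log2 ratios (vertical axes) against the percent of counts from 24 acinar markers (horizontal axis) in each library, with color for diet and shape for replicate. KD replicate 4, at 19.9%, lies with the other KD libraries in the ratio Iapp/(Ins1+Ins2) and in Ins1/Ins2, and above every LFD library in the Ins2 level. In Pcsk1n/Pcsk1 it is the lowest KD library, next to HFD replicate 2. The acinar share as a cause was not tested.

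The genes most like each member over the 9 libraries were named by the SD of the difference in log2 CPM, out of 10397 candidates with a mean of at least 5 CPM, as a description of these libraries. For Ins1 these were Ntrk2 (SD 0.13), Gng12 (0.16) and Kcnk16 (0.17), a potassium channel gene of beta cells. For Ins2 they were Scg2 (0.12), which encodes a granin, Stk26 (0.13) and Syt4 (0.14). For Iapp they were Akr1c14 (0.11), Efcab1 (0.11) and Stk26 (0.13).

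Bhlhb9, Kcnn3 (0.15 each) and Stk26 (0.16) came closest to Pcsk1, and Slc7a14 (0.08), Prnp (0.09) and Atp6ap2 (0.09) to Pcsk2. Those closest to Cpe were Kcnk16 (0.09), Syt13 (0.11) and Spock1 (0.11). Pcsk1n was followed by Aplp1 (0.10), Fbxo2 (0.11) and Apbb1 (0.11), Scg5 by Rgs9 (0.09), Map3k15 (0.10) and Map9 (0.10), and Pam by Tmprss4 (0.09), Skap1 (0.10) and Fgf12 (0.10). The median SD over all candidates ran from 0.46 for Pcsk2 to 0.76 for Iapp.

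Around the 9 genes stand 107 others of the pathway in 6 lists, of which 103 could be tested. For KD against LFD, 7 of the 103 passed, all higher on KD, where 0.981% of all genes were called higher (edgeR, Benjamini-Hochberg adjusted p below 0.05). For the 2 comparisons with HFD edgeR called 0. At an unadjusted p below 0.05 there were 6 of 103 for HFD against LFD, beside 9.99% of all genes, and 26 of 103 for KD against HFD, near the 22.7% of all genes. DESeq2 called 1 and 16 of them, beside 1.44% and 8.18% of all genes. The count of 7, beside 4.12% of all genes called in either direction, depended on single libraries. It was 0 when LFD replicate 1 or KD replicate 3 was left out (0.97% and 0.822% of all genes called). It was 1 when LFD or KD lost its replicate 2 (1.24% and 1.08%). It was 13 when KD lost its replicate 4 (7.4%). Scaled to the beta cell reference genes the pathway count was 0, beside 1.31% of all genes.

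The list with the most calls was entry into the endoplasmic reticulum and folding, with 4 of 29 higher, 0 lower and 28 of 29 above 0 (median log2 0.33, beside -0.02 over all genes). Sec61b, a subunit of the translocation channel, was at 48.1, 53.5 and 38.7 CPM on LFD and 76.2, 64.0, 70.4 and 78.6 on KD (log2 0.63, edgeR Benjamini-Hochberg adjusted p = 0.0322). Ssr1, of the complex that helps proteins through that channel, was at 226, 227 and 195 CPM on LFD and 345, 317, 352 and 312 on KD (log2 0.62, edgeR Benjamini-Hochberg adjusted p = 0.0277). Srpr, the receptor of the signal recognition particle, and Sil1, an exchange factor of the chaperone BiP, rose by log2 0.70 (adjusted p = 0.0247) and 0.67 (adjusted p = 0.0210) in the same test. P4hb, a disulfide isomerase, had 0.78 (adjusted p = 0.0936) and Ero1b, an oxidase of beta cells, 0.39 (adjusted p = 0.274), by edgeR with Benjamini-Hochberg adjustment. Acinar cells express this machinery too: summed acinar markers took 14.7% to 34.98% of counts on LFD and 19.9% to 59.0% on KD, and their part in these values was not tested.

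Among 13 other convertases and carboxypeptidases, 1 passed: Cpn1, the catalytic subunit of carboxypeptidase N, at 37.0, 36.1 and 31.4 CPM on LFD and 75.6, 51.9, 71.3 and 55.3 on KD (log2 0.87, edgeR Benjamini-Hochberg adjusted p = 0.0150). Furin, the convertase of the Golgi, had 0.78 (adjusted p = 0.0871) and Cpd -0.17 (adjusted p = 0.541) in edgeR. Among 16 granins and granule proteins, Rab3a, a granule GTPase (log2 0.82, adjusted p = 0.0425), and Hid1, which takes part in granule formation (log2 0.83, adjusted p = 0.0273), were higher in edgeR with Benjamini-Hochberg adjustment. The granins Chga (0.62, adjusted p = 0.316) and Scg2 (-0.05, adjusted p = 0.960) did not pass in edgeR.

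In the remaining lists the counts at an unadjusted p below 0.05 were near the 22.7% of all genes. None of the 13 genes of granule acidification passed in edgeR, with 3 at an unadjusted p below 0.05, and Atp6v1b2 (0.01) and Atp6ap2 (0.12) of the proton pump had the highest levels. None of the 15 tested of 19 other precursors passed, with 4 at an unadjusted p below 0.05, and Gcg, the glucagon precursor, was at 8482.61 CPM ± 1564.83 (SD, n = 3) on LFD and 10178.3 CPM ± 4010.35 (SD, n = 4) on KD. Ppy, the pancreatic polypeptide precursor, was at 1453.73 CPM ± 785.912 (SD, n = 3) on LFD and 1225.27 CPM ± 576.193 (SD, n = 4) on KD. None of the 17 regulators of the insulin genes passed, with 4 at an unadjusted p below 0.05. Mafa, an activator of insulin transcription, had the log2 difference 1.24 (SE 0.38, edgeR Benjamini-Hochberg adjusted p = 0.0980). Nkx6-1, a homeodomain factor of beta cells, had 0.22 (SE 0.28, edgeR Benjamini-Hochberg adjusted p = 0.671).

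**Figure D5:**
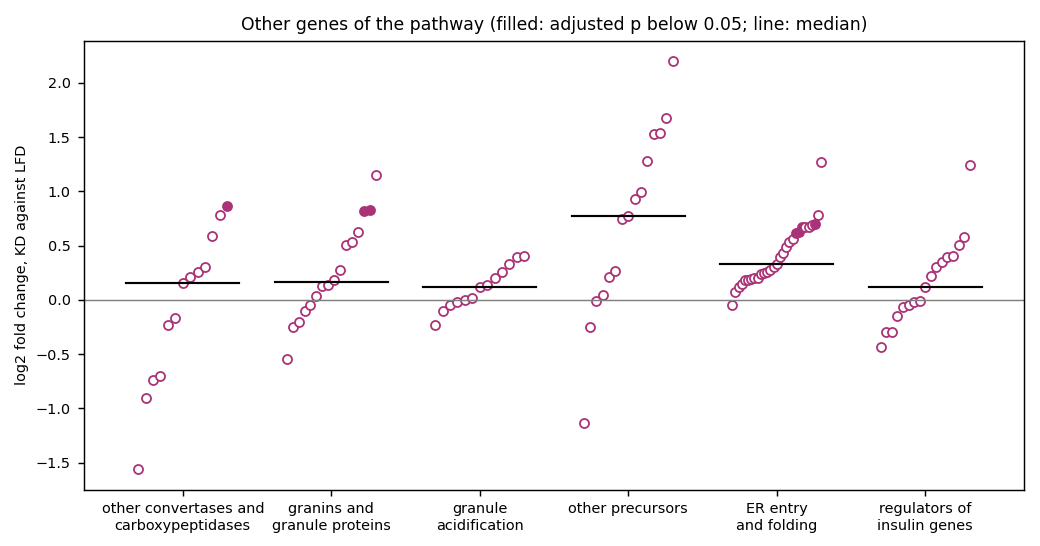
Log2 fold change of KD against LFD (vertical axis) for the 103 tested pathway genes, a point per gene in 6 lists, filled where the edgeR adjusted p is below 0.05, with a line at each list's median. The 7 filled points lie above 0, 4 of them among the genes of entry into the endoplasmic reticulum and folding.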

How the data were processed

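Polyadenylated RNA of mouse islets was sequenced from stranded libraries, per the labels' protocols. The authors deposited raw counts per Ensembl gene identifier, 56941 in 9 columns, matched to samples by title. Per the submitters' processing notes, cutadapt 1.16, STAR 2.7.9a, featureCounts 1.6.3 and DESeq2 1.40.2 were used with GRCm39/mm39; the settings, including strand and reads that match several genes, are not given in the sources used here. Symbols were matched for 51948 identifiers.

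Counts were analysed in R 4.3.3 with edgeR 4.0.16. filterByExpr kept 18548 genes, among them all 9 members. Libraries were scaled by TMM and fitted together with a mean per diet (robust quasi-likelihood, two-sided tests), adjusted by Benjamini-Hochberg over all genes at 0.05. Standard errors were the log2 fold change over the square root of F. Alternatives used limma 3.58.1 and DESeq2 1.42.0, and log2 CPM used a prior count of 2. The procedure was tested on simulated data, with counts drawn gene by gene and no spread shared between genes. For KD against LFD it recovered 45% of 2-fold and 89% of 4-fold changes. For HFD against LFD it recovered 23% of 2-fold and 80% of 4-fold changes. Changes of 2-fold or less can therefore often be missed. The tested ratios between members used raw counts, since library scaling does not alter a ratio within a library. Levels over the beta cell reference and the shares among other genes used TMM-scaled CPM. No genome of the authors' build was used here, so no coordinates are given for the counted genes; the sequences and lengths carry the GRCm38 builds named with them.

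All 9 members were named. Of each pathway list, the text names the genes past the threshold in any comparison (at most 4, lowest p) and the 2 with the highest mean CPM; likeness names the 3 genes with the smallest SD. The members and lists were chosen with earlier results of these data known.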

Additional observations from a re-analysis of the deposited data

Results flagged for a closer look

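Among 26 quantities examined in the 4 KD libraries, 2 had a library far from the other 3, where chance gives about 1 in 20. At that rate such a library is expected by chance among 26 quantities. Scg5 over the beta cell reference was highest in KD replicate 4, at log2 0.998 (1.997 as a ratio) against 1.36 to 1.44 as a ratio in the other KD libraries. Pam over the beta cell reference was also highest in KD replicate 4, at log2 2.44 (5.42 as a ratio) against 3.85 to 4.02. Both quantities share the reference and the library, so they are not separate results.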

How the results depend on the processing

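Of 540 values of the 9 genes under alternatives, 488 kept their direction and their side of the threshold, 40 changed sign and 12 came to pass it. The labels do not say whether the replicate numbers pair the samples. Deviations of same-numbered LFD and KD libraries correlated at 0.22, -0.016 and -0.0026. The values were 0.069 and 0.075 for LFD and HFD, and 0.038 and 0.081 for HFD and KD. Libraries of unlike number ran from -0.28 to 0.24. So few values cannot exclude a pairing. KD replicate 4 has a number no other diet has, so it adds nothing to a blocked comparison. The replicate block gave 19, 2 and 25 pathway genes called for KD against LFD, HFD against LFD and KD against HFD, and 3 members (Iapp, Pcsk1 and Scg5) for KD against HFD, beside 10.8%, 2.13% and 12.5% of all genes called in those comparisons. Under the block the KD against LFD log2 values changed sign for Ins1 (-0.052), Pcsk2 (-0.11), Cpe (-0.0072), Scg5 (-0.31) and Pam (-0.10), as did Pcsk1n for KD against HFD (-0.20).

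With the acinar covariate edgeR called 4 members and 22 pathway genes for KD against LFD, beside 7.29% of all genes. The values that changed sign were then Ins2 (0.27), Iapp (0.12) and Pcsk1 (0.15) for KD against LFD, Pcsk1 (-0.059) and Cpe (-0.0026) for HFD against LFD, and Ins1 (0.88), Ins2 (0.18), Pcsk1 (0.21), Pcsk2 (0.60), Cpe (0.77), Scg5 (0.22) and Pam (0.41) for KD against HFD. With the same covariate, which was chosen after seeing the data for these quantities, Ins1/Ins2 was 0.66, Iapp/(Ins1+Ins2) -0.34, Pcsk1/Pcsk2 -0.40 and Pcsk1n/Pcsk1 0.91, no longer at an exact p below 0.05. Relative to the beta cell reference it gave Ins1 0.66, Pcsk2 0.27 and Cpe 0.45, now below 0.05 unadjusted, and a changed sign for Ins2 (0.0018) and Scg5 (0.13). Differences of medians were 0.62, -0.35, -0.44 and 0.90 for those 4 ratios. With these group sizes, exchanging the closest KD and LFD libraries leaves both medians unchanged. The exact permutation p for medians could therefore not fall below 0.05, and no conclusion is drawn from it. The median of the reference genes turned Pcsk2 (-0.13) and Pam (-0.094).

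With the beta cell reference as covariate 1 member and 23 pathway genes were called for KD against LFD, beside 14.0% of all genes. For KD against HFD that covariate gave 7 pathway genes, beside 2.16% of all genes. Under it Scg5 was -0.041 for KD against LFD, and Ins1 (0.065), Pcsk2 (0.0039) and Cpe (0.15) changed sign for KD against HFD. limma-voom called 1 member and 15 pathway genes for KD against LFD, beside 10.1% of all genes, with Scg5 at -0.0058. DESeq2 called 17, 1 and 16 pathway genes for KD against LFD, HFD against LFD and KD against HFD, beside 9.56%, 1.44% and 8.18% of all genes. Without the low-count filter 6 pathway genes passed for KD against HFD, beside 1.02% of all genes. With at least 5 CPM in at least 3 libraries Scg5 was -0.030 for KD against LFD. Scaling to the beta cell reference moved the median of all genes to -0.26 for HFD against LFD and 0.22 for KD against HFD. That scaling left 0 pathway genes for KD against LFD, beside 1.31% of all genes. It turned Scg5 (-0.035, KD against LFD) and Cpe (0.093, KD against HFD). The causes were not tested.

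Leaving out each library in turn, log2 values for KD against LFD ran from -0.037 to 0.64 for Ins1, -0.59 to 0.066 for Ins2, -0.11 to 0.34 for Pcsk2, -0.31 to 0.19 for Scg5 and -0.11 to 0.38 for Pam. For KD against HFD they ran from -0.62 to 0.051 for Ins1, -0.38 to 0.13 for Cpe and -0.19 to 0.30 for Pcsk1n. Scg5 over the reference ran from -0.18 to 0.0022. Called members for KD against HFD ran from 0 to 3, and called pathway genes from 0 to 13 for KD against LFD and from 0 to 22 for KD against HFD. Without KD replicate 4, 7.4% of all genes were called for KD against LFD and 9.84% for KD against HFD. Leaving out an HFD library leaves that diet with 1, whose spread is then assumed like that of the other diets. With 2 to 4 libraries a diet, a difference that misses the threshold does not show that the diets are alike.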
